A study of Drosophila melanogaster with 4 samples.

Results

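Drosophila melanogaster females mated to spermless males were compared with females mated to DTA-E males, a contrast that asks what accessory gland proteins (Acps) change in the female when no sperm arrive. Of 13965 probe sets that are not array controls, 7345 reached the median of all values (-0.18) in at least 1 column and were kept, and 6534 of these carry 1 gene symbol and stand for 6201 of 10844 named genes. All females were of an inbred wild-type Canton S stock, reared at 25 °C and aged 3 to 4 days, and mated females were frozen 1 to 3 h after copulation ended. Spermless males were sons of Canton S males and bw sp tud1 females, have intact accessory glands and pass Acps in the ejaculate. DTA-E males came from a transgenic stock in a Canton S background, make no sperm and lack the products of the main cells, which are 96% of its secretory cells. Both kinds of males thus differ in stock as well as in Acps, and these cannot be told apart. The other groups of the series were females mated to wild-type Canton S males, which pass both sperm and Acps, and virgin females. For each group 50 flies were drawn from pooled matings, split into 2 RNA extractions and run on 4 Affymetrix chips, but the value table has 1 column per group. No replicate spread was therefore available, no test could be made, and every difference below is between 1 column and 1 other.

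Acps are small peptides, proteases, inhibitors and prohormone-like proteins that the male accessory gland secretes into seminal fluid. In Drosophila females they are known to raise egg laying, lower receptivity to further males, promote feeding and sperm storage, and raise transcripts of antimicrobial peptides, the last largely through the sex peptide. The immune effectors named below are made mainly in the fat body under the Toll and Imd pathways, in which NF-kB factors switch on genes for short secreted peptides. Flight muscle, another group that stands out below, is a fibrillar muscle with its own actin, troponin C and thick filament proteins and a dense supply of mitochondria.

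The labels name no base for the logarithm of the values. They are read here as log2, so that a difference of 1 is 2-fold; if they were natural logs it would be 2.72-fold. Levels are given after the columns were aligned on their medians, and each difference is the spermless column minus the DTA-E column. Across the 6201 genes the difference had an SD of 0.13 and a median of 0.00, and 99.4% of the genes lay within 1.5-fold. At least 1.5-fold higher after spermless males were 32 genes (0.516% of those compared), and 4 were at least that much lower (0.0645%). At 2-fold the counts were 10 higher (0.161%) and 0 lower (0%). Just inside the 1.5-fold line was LysB at 0.59 and just outside it was retinin, a corneal lens protein gene named here for its place, at 0.57. On the lower side CG3348 at -0.65 was the last gene inside and mtrm at -0.54 the first outside. For 294 genes with several probe sets, the difference varied between probe sets of 1 gene with an SD of 0.09, which says nothing of variation between pools of flies.

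Both columns also differed in scale. The SD over the deposited values was 1.03 in the spermless column and 1.07 in the DTA-E column, and the difference drifted with level, with a median of 0.05 over the 1551 genes of lowest level and -0.05 over the 1550 of highest level. The 9 hybridization control probe sets were all higher in the spermless column, by 0.17 on average, and all 23 other foreign control probe sets were higher, by 0.11 on average. The hybridization controls had means of 1.44 after spermless males, against 1.27 after DTA-E males, 1.51 after wild-type males and 1.35 in virgin females. Their lowest column was thus DTA-E, and that of the foreign controls was virgin (-1.28, against -1.27 after DTA-E males). Between the 3' and 5' probe sets of actin, a sign of RNA integrity, the gap was 2.02 after spermless males, against 2.26 after DTA-E males. For eIF-4a it was 1.80, against 1.97, and for GAPDH the columns were closer, at 1.93, against 1.97. Their part in the results below was not tested, and list medians of about 0.1 or less are therefore set beside the value with the drift removed. Of the genes compared 49.8% were above 0 and 50.2% below it, whereas in the columns as deposited 31.8% were above 0, with a median difference of -0.05, and with the drift removed 51.2%.

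**Figure D1:**
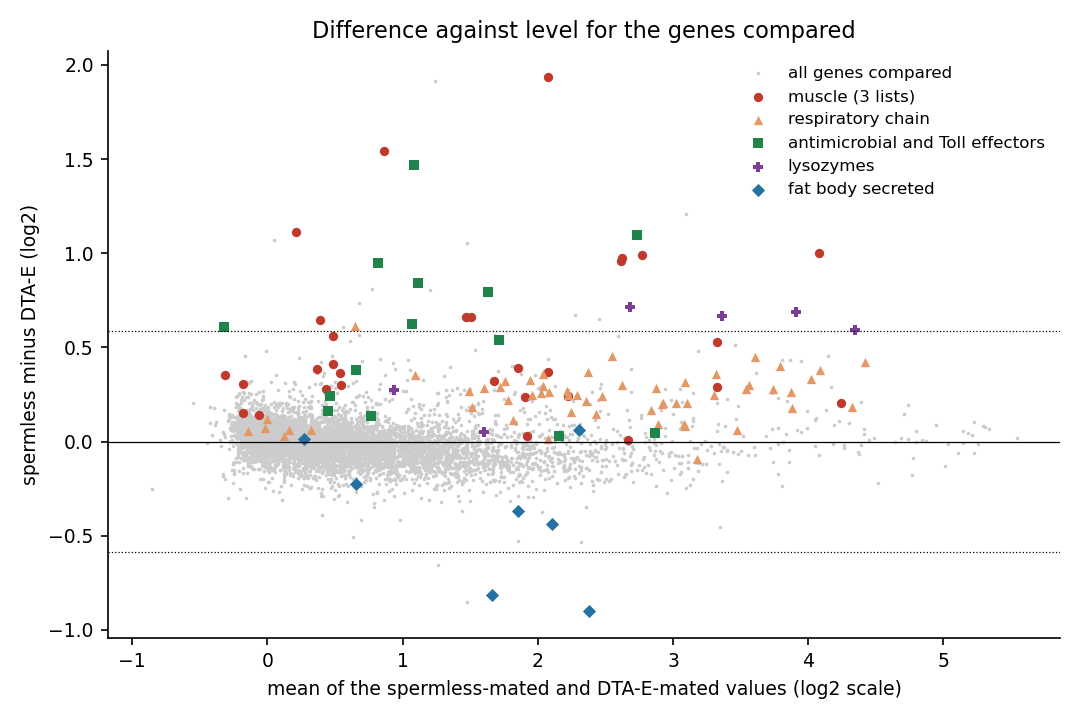
Each point is 1 of the 6201 genes, with its mean value in the spermless-mated and DTA-E-mated columns on the horizontal axis (log2 scale) and the spermless minus DTA-E difference on the vertical axis (log2), 5 gene groups in colour and dotted lines at 1.5-fold. Above the upper line are 32 genes, led by Act88F at 1.93, and below the lower line are 4, led by Obp99a at -0.90.

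Flight muscle genes were the most strongly higher group. Act88F, the actin of the indirect flight muscle, had the largest difference of all genes, with a value of 3.04 after spermless males, against 1.11 after DTA-E males, 0.08 after wild-type males and 1.74 in virgin females. That is a difference of 1.93, or 3.82-fold. The spermless column was the highest and the wild-type column the lowest. The flight muscle troponin C gene TpnC4 was 0.77 after spermless males, against -0.34 after DTA-E males, -1.14 after wild-type males and 0.24 in virgin females, a difference of 1.11. Both myosin light chain genes were higher. Mlc2, the regulatory light chain, was 4.58 after spermless males, against 3.57 after DTA-E males, 3.18 after wild-type males and 3.75 in virgin females. Mlc1, the alkali light chain, was 3.11 after spermless males, against 2.14 after DTA-E males, 1.77 after wild-type males and 2.20 in virgin females. Act79B, an actin of tubular leg and jump muscle, differed by 0.99 and TpnC41C, a troponin C gene of tubular muscle, by 0.66. In these last genes the DTA-E, wild-type and virgin columns lay close together, at 2.27, 2.26 and 2.36 for Act79B, while the spermless column stood at 3.26. Actin genes are near-identical in coding sequence, and the probe set for Act79B is of a kind that can match several genes, so a share of its signal may come from other actins.

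All 10 measured members of the thin filament and light chain list were higher, 6 past 1.5-fold, with a median of 0.82 beside -0.00 for all genes. Thick filament and Z-disc genes were higher in 13 of 13 members (median 0.37), 3 of them past 1.5-fold. fln, which encodes the flight muscle thick filament protein flightin, was 1.63 after spermless males, against 0.09 after DTA-E males, -0.77 after wild-type males and 0.57 in virgin females, a difference of 1.55. Prm, the paramyosin gene, differed by 0.66, Msp300, which encodes a nesprin that anchors nuclei and mitochondria in muscle, by 0.65, and bt, the projectin gene, by 0.41. Strn-Mlck, which encodes a titin-related kinase, was measured by 2 probe sets that differed by 0.60 and 0.17. Without the filter on low values the median of this list was 0.23, with the columns then aligned over all probe sets.

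Calcium handling and energy genes of muscle were higher by less. Mpcp1, a mitochondrial phosphate carrier gene, was 3.09 after spermless males, against 2.14 after DTA-E males, 1.60 after wild-type males and 2.43 in virgin females. The calcium release channel gene RyR differed by 0.31, the calcium pump gene SERCA by 0.29 and the ADP/ATP carrier gene sesB by 0.20. The arginine kinase gene Argk1 differed by 0.24, the mean of 2 probe sets that differed by 0.14 and 0.34. In the probe set at 0.14 the wild-type (1.21) and virgin (1.09) values were above the spermless value of 1.04. Gpdh1 (0.03) and the second phosphate carrier gene Mpcp2 (0.01) were close to 0. Over the 3 muscle lists all 30 measured genes were higher, and the spermless column was the highest of the 4 in all 30, against 22% of all genes. Only a gene above 0 can have that column as its highest, and of 3091 such genes among all compared 1362 did. Of the 30 muscle genes, 3 reached the filter only through the spermless column, and without the filter 29 of the 31 on the array were higher. The wild-type column was the lowest in 23 of the 30, against 26.6% of all genes. The median difference of these 30 genes in wild-type against virgin females, which uses neither column of the main contrast, was -0.09. In whole females, more cells of a tissue and more RNA per cell cannot be told apart.

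Genes for energy supply were higher too. Of 57 measured mitochondrial respiratory chain genes 56 were higher, with a median of 0.25, and 1 was past 1.5-fold. That gene, ND-B8 of complex I, was 0.96 after spermless males, against 0.34 after DTA-E males, -0.48 after wild-type males and 0.64 in virgin females. Cyt-c1 of complex III differed by 0.45, and the ATP synthase genes ATPsyngamma, blw, ATPsynO and ATPsynD by 0.45, 0.42, 0.40 and 0.38. The spermless column was the highest in 52 of the 57, and the wild-type column the lowest in 49. The list's median level was 2.55 after spermless males, against 2.32 after DTA-E males, 1.99 after wild-type males and 2.39 in virgin females. Glycolytic enzyme genes were higher in 12 of 13 members (median 0.19), none past 1.5-fold. Gapdh1 differed by 0.46, the aldolase gene Ald1 by 0.43 and the glycogen phosphorylase gene Glyp by 0.29, and the wild-type column was the lowest of the 4 in all 13. Removing the drift with level left the medians at 0.29 for the respiratory chain and 0.20 for glycolysis. By contrast, the list of mitochondrial ribosomal protein genes, which encode the organelle's translation machinery, was lower in 55 of 65 members (median -0.05). With the drift removed it was lower in 40 (median -0.02). Its members include mu2, which was matched by its symbol and is not such a gene.

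**Figure D2:**
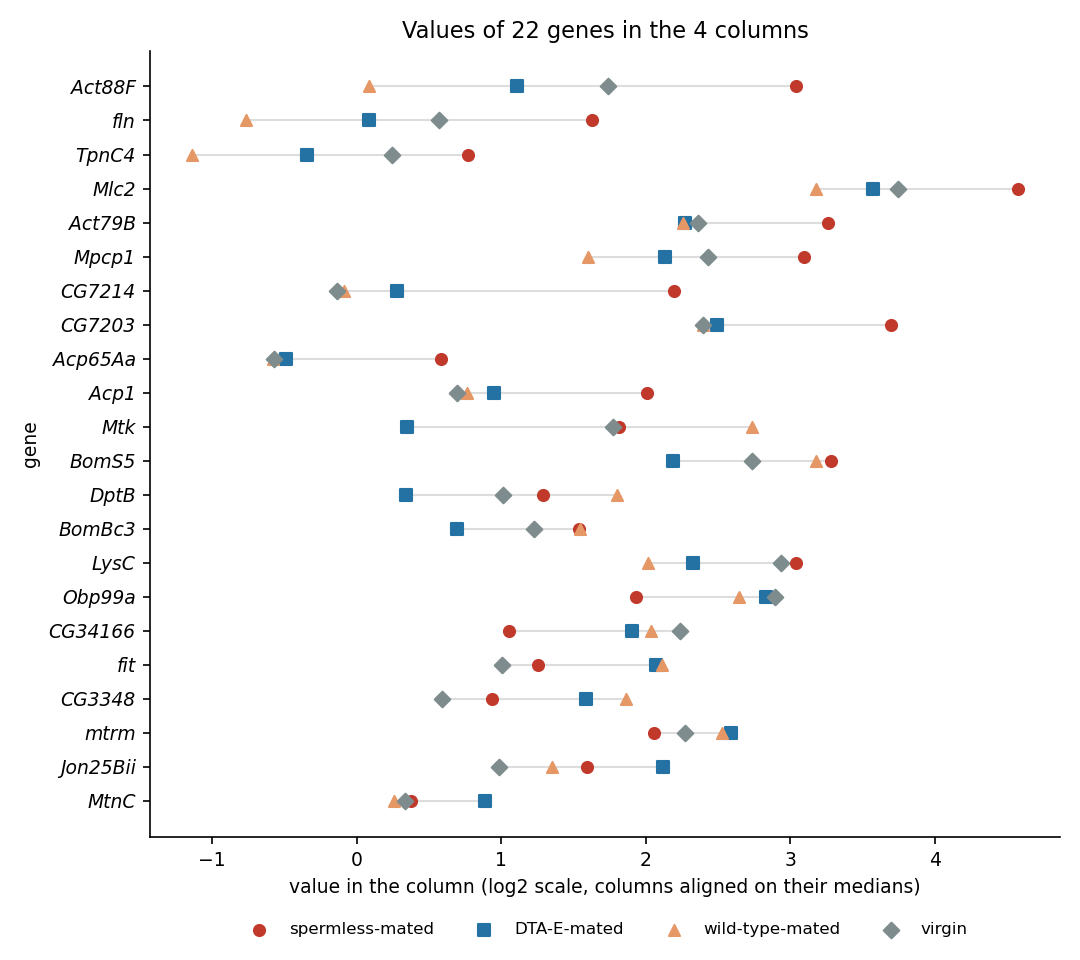
Each row is 1 gene and each symbol its value in 1 column on a log2 scale with the columns aligned on their medians (circle spermless-mated, square DTA-E-mated, triangle wild-type-mated, diamond virgin), with a line over the range of the 4 columns. In the muscle genes and CG7214 the spermless value stands above the other 3, in Mtk and DptB the DTA-E value stands below the other 3, and in Obp99a and CG34166 the spermless value stands below the other 3.

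Some genes of the adult cuticle were higher in the spermless column alone. Acp65Aa, an adult cuticle protein gene, was 0.58 after spermless males, against -0.49 after DTA-E males, -0.58 after wild-type males and -0.57 in virgin females. Acp1, another adult cuticle gene, was 2.01 after spermless males, against 0.95 after DTA-E males, 0.76 after wild-type males and 0.69 in virgin females. Despite the symbol, neither is an accessory gland protein gene. Cpr49Ae, of the chitin-binding cuticle protein family, differed by 0.81. These 3 genes stood apart from the rest of their list. Of 45 measured cuticle genes 44 were higher, but the median was 0.07, and without those 3 it was 0.06 over 42 genes, also with the drift removed, with 0 past 1.5-fold. With the drift removed the list median was again 0.07, and in the columns as deposited it was 0.02. The array held 99 cuticle genes, of which 54 did not reach the filter, and 4 of the measured genes, Acp65Aa included, reached it only through the spermless column.

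CG7214 and CG7203, which carry only annotation numbers, were among the 5 highest genes. CG7214 was 2.20 after spermless males, against 0.28 after DTA-E males, -0.09 after wild-type males and -0.14 in virgin females. CG7203 was 3.70 after spermless males, against 2.49 after DTA-E males and 2.39 in both other groups. Like the cuticle genes, both had the 3 other columns close together. CG11458 (0.74), CG4000 (0.67), CG13947 (0.65) and CG13482 (0.61) completed the numbered genes past 1.5-fold. In the first 3 the spermless value stood apart from the other columns, whereas CG13482 was 0.87 after spermless males, against 0.26 after DTA-E males, 0.04 after wild-type males and 0.80 in virgin females. GstE6, a glutathione S-transferase gene, was 0.45 after spermless males, against 0.01 after DTA-E males, -0.13 after wild-type males and -0.02 in virgin females.

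Several immune effector genes were higher after spermless males as well, and in Mtk, DptB and most Bomanins the DTA-E column was the lowest of the 4. Mtk, which encodes the antifungal peptide metchnikowin, was 1.82 after spermless males, against 0.35 after DTA-E males, 2.73 after wild-type males and 1.77 in virgin females. The spermless and virgin values were close together, and the DTA-E value lay below both, for a difference of 1.47. DptB, a diptericin gene of the Imd pathway, was 1.29 after spermless males, against 0.34 after DTA-E males, 1.80 after wild-type males and 1.01 in virgin females. The other measured antimicrobial peptide genes differed little, with Def at 0.16, Drsl5 at 0.14 and the drosomycin gene Drs at 0.04. Drs was 2.89 after spermless males, against 2.84 after DTA-E males, 3.07 after wild-type males and 2.84 in virgin females. All 5 measured members were thus above 0, 2 past 1.5-fold, with a median of 0.16, and the DTA-E column was the lowest in 2 of the 5. Only 8 genes of this list were matched on the array, and 3 of them did not reach the filter. The other listed genes, AttA, CecA1 and Dro among them, were not assessed.

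Bomanins, short secreted peptides that Toll signalling induces and that flies need against fungi and Gram-positive bacteria, were higher as a group. All 9 measured members of the list named here for Toll effectors were above 0, 5 past 1.5-fold, with a median of 0.61. These are Bomanins apart from Listericin, which is not one. BomS5 was 3.28 after spermless males, against 2.19 after DTA-E males, 3.18 after wild-type males and 2.74 in virgin females. BomBc3 was 1.54 after spermless males, against 0.69 after DTA-E males, 1.55 after wild-type males and 1.23 in virgin females. For both, the spermless and wild-type values lay close together, above the virgin value, and the DTA-E value lay below it. BomBc2 differed by 0.79, BomS2 by 0.62, BomS4 by 0.61 and BomT2 by 0.54, and BomS4 reached the filter only through the spermless column. Bbd, the bombardier gene, whose product short Bomanins need, was 1.60 after spermless males, against 0.80 after DTA-E males, 1.54 after wild-type males and 1.09 in virgin females. The DTA-E column was the lowest of the 4 in 7 of the 9 listed genes, against 20.8% of all genes. Only a gene above 0, as all 9 were, can have that column as its lowest. Among all genes compared, 3091 were above 0 and 1289 had it as the lowest. Several Bomanins are close copies of each other, and probe sets may share signal between them.

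Genes of the immune recognition and signalling list differed less. Of 22 measured recognition and signalling genes 14 were higher and 8 lower, none past 1.5-fold, with a median of 0.08, or 0.03 with the drift removed. PGRP-SB1, an amidase gene induced by Imd signalling, was 0.88 after spermless males, against 0.34 after DTA-E males, 1.24 after wild-type males and 0.80 in virgin females, the same order as Mtk. Tsf1, the transferrin gene, differed by 0.35, SPE, the protease that activates Spätzle, by 0.31, nec, a serpin that restrains Toll, by 0.26 and Rel, the NF-kB factor of the Imd pathway, by 0.25. PGRP-SC2, a negative regulator expressed in the gut, was lower by -0.32. Serpin genes were higher in 10 of 11 members (median 0.13, or 0.11 with the drift removed), led by Spn28Dc at 0.35, which reached the filter only through the spermless column.

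Some probe sets for which the annotation used here gives no single gene also had a low DTA-E value. Of 811 that passed the filter, 13 (1.6%) were past 1.5-fold higher, 6 of these past 2-fold, and 0 were past 1.5-fold lower, with a median difference of 0.01 over the 811. As a description of these 13, which were chosen by the difference itself, the DTA-E column was the lowest in all of them, the wild-type column the highest in 10 and the spermless column the highest in 3. Among the 32 named genes chosen in the same way, the DTA-E column was the lowest in 7 and the wild-type column the highest in 3, and over all named genes the wild-type column was the highest in 29.2%. The largest of them was 1.58 after spermless males, against -0.10 after DTA-E males, 1.65 after wild-type males and 0.72 in virgin females.

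**Figure D3:**
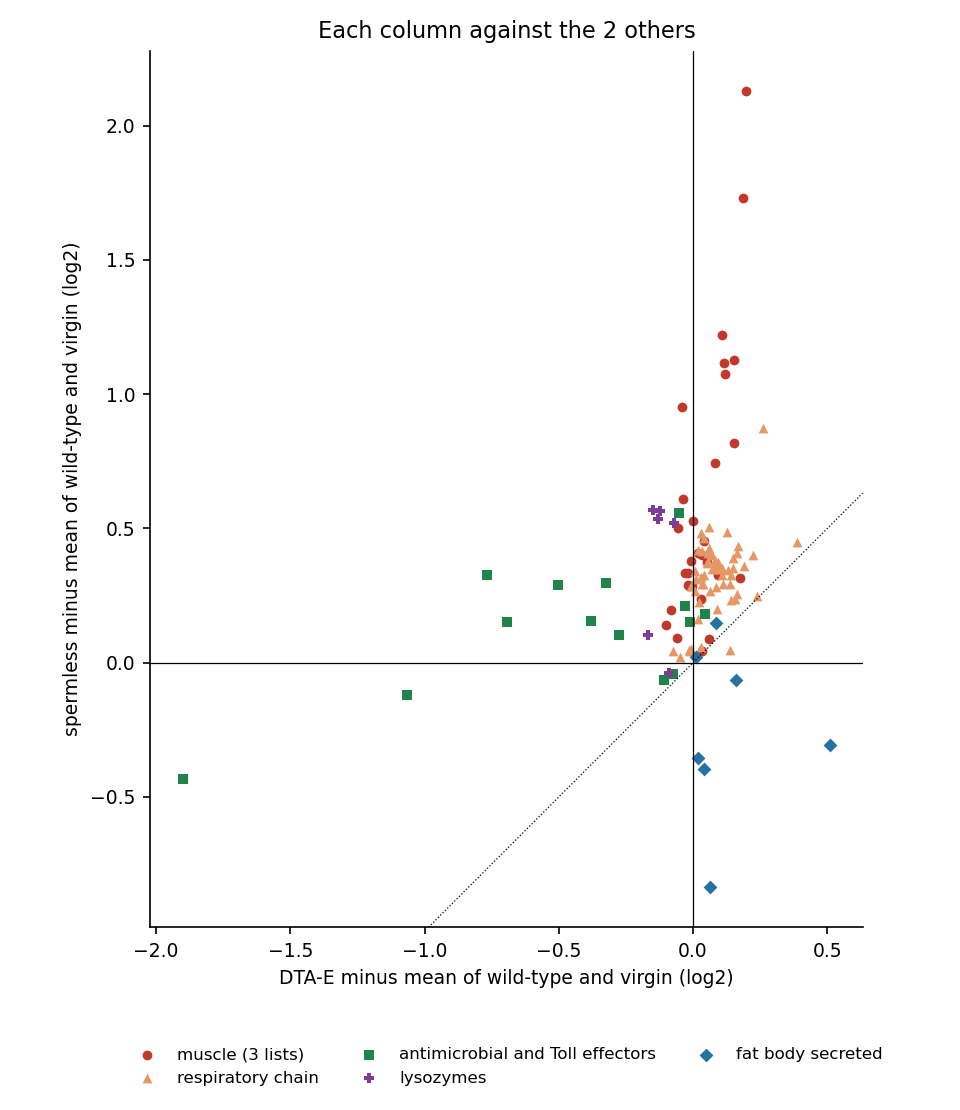
For the members of 5 gene groups, the horizontal axis gives the DTA-E value and the vertical axis the spermless value, each minus the mean of the wild-type and virgin values (log2), with a dotted line where both are equal. Muscle genes lie above 0 on the vertical axis and near 0 on the horizontal one, while Mtk, with a DTA-E value of 0.35 against 2.73 and 1.77 in the wild-type and virgin columns, lies far to the left. A place near 0 need not mean that the columns were alike. For Act88F the DTA-E value of 1.11 lay between 0.08 in the wild-type and 1.74 in the virgin column.

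Among lysozyme genes, LysB, LysC, LysD and LysE had an order unlike that of Mtk. Their values fell from the spermless to the virgin, DTA-E and wild-type columns, as in Act88F, Mlc2, Mpcp1 and ND-B8. LysC was 3.04 after spermless males, against 2.32 after DTA-E males, 2.01 after wild-type males and 2.93 in virgin females. LysD (0.69), LysE (0.66) and LysB (0.59) differed by similar amounts, while LysP (0.27) and LysS (0.05) differed by less. In LysB, LysC, LysD and LysE the spermless column was the highest and the wild-type column the lowest, with median levels of 3.98 after spermless males, against 3.30 after DTA-E males, 3.10 after wild-type males and 3.75 in virgin females. These 4 midgut lysozyme genes are close copies, so their probe sets may not be independent. The median of the 6 measured lysozyme genes was 0.63.

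Other digestive genes were closer to each other in the pair of columns. The trypsin list was higher in 8 of 9 members (median 0.12), led by epsilonTry at 0.48, and the abundant betaTry (0.19) and alphaTry (0.12) differed by less. The alphaTry difference was -0.04 after quantile normalization. Among Jonah protease genes 10 of 14 were higher, with Jon74E at 0.43 and Jon65Ai at 0.27, but Jon25Bii was 1.59 after spermless males, against 2.12 after DTA-E males, 1.35 after wild-type males and 0.98 in virgin females. Jon25Bi likewise was lower by -0.35, and in both the DTA-E column was the highest. Carbohydrate digestion genes were higher in 11 of 12 members (median 0.09, or 0.07 with the drift removed). Amy-d, an amylase gene, differed by 0.28 and the maltase gene Mal-A6 by 0.27. Over the list virgin females stood apart, with a median level of 1.19, beside 0.34 after spermless, 0.21 after DTA-E and 0.02 after wild-type matings. Amy-d differed from this, with a virgin value of 3.15 close to 3.08 after spermless males, against 2.80 after DTA-E and 2.04 after wild-type males.

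Past 1.5-fold, 4 genes were lower after spermless males, and 2 of them, Obp99a and fit, belong to the fat body list. Obp99a, an odorant-binding protein gene, was 1.93 after spermless males, against 2.83 after DTA-E males, 2.65 after wild-type males and 2.89 in virgin females, a difference of -0.90. CG34166 was 1.05 after spermless males, against 1.90 after DTA-E males, 2.04 after wild-type males and 2.24 in virgin females. In both genes the spermless column alone was low. A different order was found for fit, a female-biased fat body gene whose product acts in feeding control, which was 1.25 after spermless males, against 2.07 after DTA-E males, 2.11 after wild-type males and 1.01 in virgin females. CG3348 had the same order, at 0.93 after spermless males, against 1.59 after DTA-E males, 1.86 after wild-type males and 0.59 in virgin females. For both of these the spermless value lay nearer to the virgin value than to either other mated group.

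Of 7 measured genes for fat body secreted and storage proteins 5 were lower (median -0.37, or -0.31 with the drift removed). Obp99a and fit, described above, were 2 of them. apolpp, the lipophorin precursor that carries lipid in haemolymph, was 1.89 after spermless males, against 2.32 after DTA-E males, 2.22 after wild-type males and 2.34 in virgin females. The larval serum protein gene Lsp2 differed by -0.37 and Apoltp, a lipid transfer particle gene, by -0.22, while Obp99c (0.06) and Fbp1 (0.01) were slightly above 0. Lipid storage and synthesis genes were lower in 9 of 15 members (median -0.07, or -0.02 with the drift removed). FASN1, a fatty acid synthase gene, was 1.84 after spermless males, against 2.22 after DTA-E males, 2.20 after wild-type males and 1.96 in virgin females. Lsd-1, a perilipin gene, was 1.35 after spermless males, against 1.66 after DTA-E males, 1.30 after wild-type males and 0.84 in virgin females. Among metal-binding genes the metallothionein gene MtnC differed by -0.51, with the DTA-E column high at 0.89 and the spermless value of 0.38 near the virgin value of 0.34. MtnB and MtnA followed at -0.25 and -0.23.

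Most genes of the oocyte lists were slightly lower, and fewer were with the drift removed. The gene mtrm, whose product holds Polo kinase inactive in oocyte meiosis, was 2.05 after spermless males, against 2.59 after DTA-E males, 2.53 after wild-type males and 2.27 in virgin females, a difference of -0.54. Of the other 15 members of the oocyte meiosis list 13 were lower (median -0.04), and 8 were lower with the drift removed (median -0.00). The cytoplasmic poly(A) polymerase gene wisp differed by -0.21. Oocyte patterning and germ plasm genes were lower in 17 of 19 members (median -0.05), and in 13 with the drift removed (median -0.04). In that list the translational repressor gene pum (-0.22), the germline helicase gene vas (-0.15) and the transport gene egl (-0.15) had the largest differences. DNA replication and cell cycle genes were lower in 24 of 27 members (median -0.07) and proteasome subunit genes in 25 of 26 with a median of -0.09. With the drift removed these medians were -0.03 and -0.04, and 19 and 21 members were lower. For scale, the 1550 genes of highest level had a median of -0.05 before the drift was removed. The replication and proteasome medians lay further from 0 than that. What part of these list medians the drift made up was not tested.

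Eggshell genes were divided. The chorion genes Cp38 (0.43), Cp7Fc (0.35), Cp36 (0.29), Cp16 (0.26) and Cp18 (0.23) were higher, dec, the defective chorion gene, was lower by -0.20, and the list had 6 higher and 7 lower. Cp38 was 4.16 after spermless males, against 3.74 after DTA-E males, 4.02 after wild-type males and 4.05 in virgin females, so the DTA-E value was the low one. The yolk protein genes, which are made in fat body and follicle cells and mark female tissue, were high in both columns. Yp1 was 5.55 after spermless males and 5.53 after DTA-E males, and Yp2 and Yp3 differed by -0.01 and -0.09. The yolk receptor gene yl differed by -0.18. Spermathecal secretory genes were close to 0, with Send1 at 0.05 and Send2 at 0.04. Both were higher in the mated columns, for Send2 at 0.12 after spermless, 0.08 after DTA-E and 0.34 after wild-type matings, against -0.89 in virgin females.

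**Figure D4:**
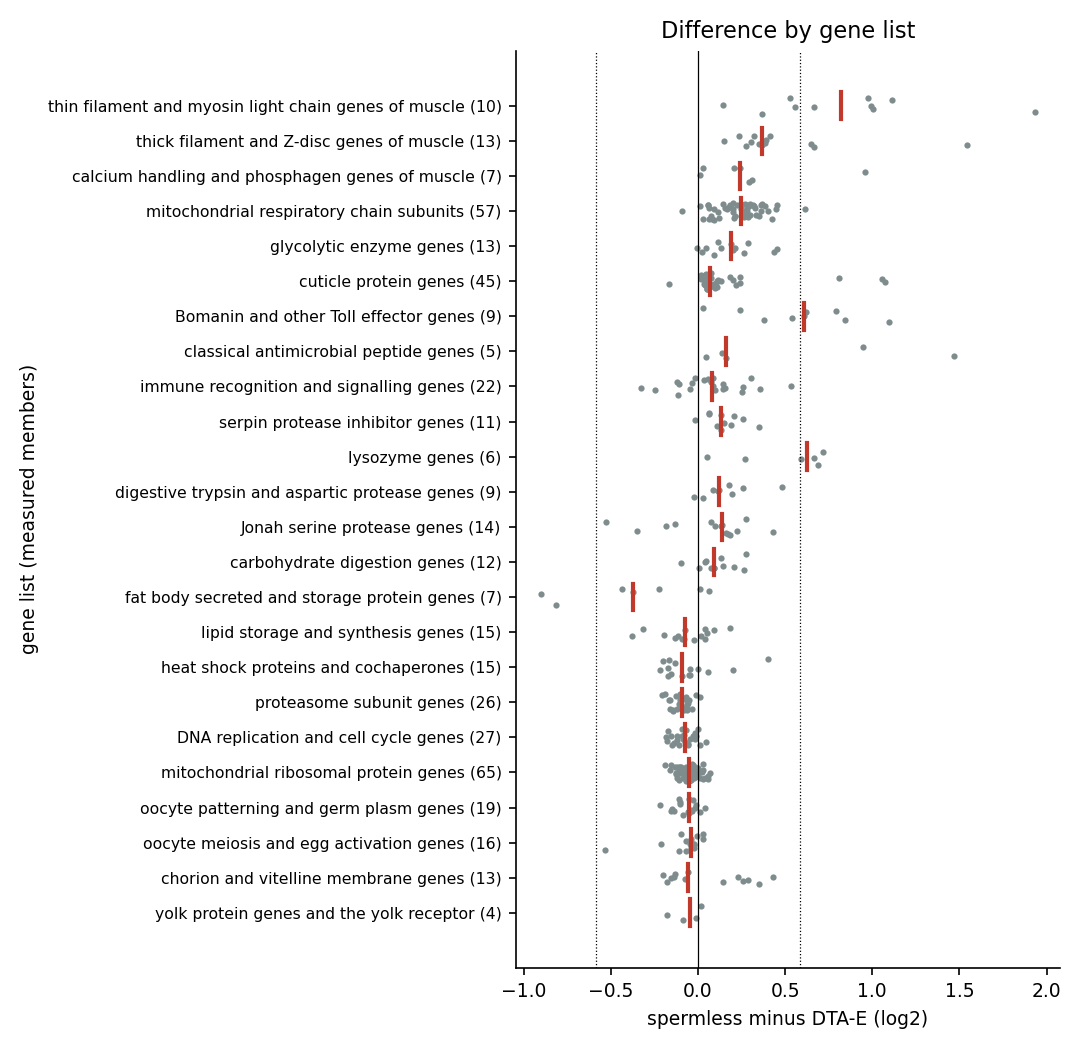
Each point is a measured gene, placed by its spermless minus DTA-E difference (log2) in the row of its list, with the red bar at the list median, the number of measured members in brackets and dotted lines at 1.5-fold. The muscle, respiratory chain, Toll effector and lysozyme lists lie to the right, with medians of 0.24 to 0.82, the fat body list lies to the left at -0.37, and the ovarian lists lie within 0.1 of 0.

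Few genes of male reproductive tissues reached the filter. None of the 14 listed male accessory gland protein genes on the array passed it. Without the filter their levels after spermless males ran from -1.66 to -0.69, and their median was -1.37 after spermless males, against -1.44 after DTA-E males, -1.47 after wild-type males and -1.47 in virgin females. All 14 were higher by 0.01 to 0.11, as were 78.9% of the 4643 genes below the filter. The sex peptide gene SP was -0.69 after spermless males, against -0.72 after DTA-E males, -0.74 after wild-type males and -0.78 in virgin females. Of 25 genes on the testis and spermatid list 5 passed the filter, with differences of 0.02 to 0.13. That list also took in, by their symbol, the accessory gland genes Mst57Da and Mst57Dc, which did not pass. Of 6 ejaculatory tract genes 2 passed, EbpIII at 0.16 and Obp56e at 0.06. Among genes that receive or carry the female response, only the octopamine receptor gene Octbeta3R (0.04) and the neprilysin gene Nep1 (0.09) passed of 15 on the array. The sex peptide receptor gene SPR did not.

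The remaining lists had no gene past 1.5-fold apart from Obp99a, already given. Heat shock and cochaperone genes were lower in 12 of 15 members (median -0.09, or -0.04 with the drift removed), with Hsp110 at -0.21 and Hsp27 at -0.20. The small heat shock gene l(2)efl went the other way at 0.40, with a value of 2.02 after spermless males, against 1.62 after DTA-E males, 1.61 after wild-type males and 1.07 in virgin females. Cytochrome P450 genes were higher in 20 of 26 members (median 0.07, or 0.06 with the drift removed), with Cyp9f2 at 0.26 and Cyp6g1 at 0.22. Another P450 gene, Cyp12d1-d, which the list does not hold, was lower, with a difference of -0.39. Neuropeptide and insulin-like peptide genes were higher in 10 of 11 members (median 0.07, or 0.05 with the drift removed). In that list Nplp3, a neuropeptide-like precursor gene, was 3.71 after spermless males, against 3.20 after DTA-E males, 2.73 after wild-type males and 3.11 in virgin females. Hormone pathway genes were 4 higher and 5 lower, with the nuclear receptor genes ftz-f1 and usp at -0.18 and -0.15. Circadian clock genes were 4 higher and 3 lower, led by Cipc at 0.31, and phototransduction genes were higher in 7 of 8 members, with the arrestin genes Arr1 at 0.15 and Arr2 at 0.01. Of these 8, 2 reached the filter only through the spermless column, and without the filter 8 of 13 were higher. Cytosolic ribosomal protein genes had a median of 0.02, or -0.02 with the drift removed, and proton pump subunit genes 0.05, or 0.06 with the drift removed. The other medians were 0.05 for odorant-binding protein genes, 0.06 for glycosyl transferase genes and 0.08 for stress response genes, and with the drift removed 0.04, 0.05 and 0.07. Glutathione transferase genes had a median of -0.03, or -0.02 with the drift removed, and metal-binding genes one of 0.00, or 0.05 with the drift removed.

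The position of each column was also read for the genes past 1.5-fold, as a description, since these genes were chosen by the difference itself. Of the 32 higher genes 25 had the spermless column as the highest with a DTA-E value that was not the lowest, 4 had both, and 3, BomBc3, DptB and Mtk, had only the DTA-E column as the lowest. Muscle, adult cuticle and lysozyme genes made up most of the first kind. All measured members of the muscle and Toll effector lists were above 0, which either position requires. Over these whole lists, the spermless column was the highest in 30 of 30 muscle genes and the DTA-E column the lowest in 4 of them, while in the Toll effector list the counts were 6 and 7 of 9. Of these, 3 muscle genes and 1 Toll effector list gene, BomS4, reached the filter only through the spermless column. For such genes the filter itself favours the spermless column as the highest. Spermless and wild-type males both pass Acps, and the side by side medians of both columns against DTA-E differed by group, although they share the DTA-E column. For the 3 muscle lists the medians were 0.38 for the spermless and -0.06 for the wild-type column, and for the respiratory chain 0.25 for the spermless and -0.21 for the wild-type column. For the Toll effector list they were 0.61 for the spermless and 0.38 for the wild-type column. Wild-type against virgin females, which shares no column with the main contrast, had a median of 0.27 in the Toll effector list, -0.27 in the respiratory chain and -0.60 in the lysozyme list.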

How the data were processed

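Whole females were profiled on an Affymetrix Drosophila GeneChip, per the labels. Values deposited by the authors were taken to be log2. How 4 chips became 1 column, the summary method and the scaling are not given in the sources used here. Each column has a mean near 0.

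Gene names came from GEO's annotation of the platform and, where the Entrez identifier matched, from RefSeq. Of the probe sets, 12443 had 1 symbol (12394 found in RefSeq), 326 several and 1196 none, besides 44 controls. Probe sets whose highest column reached the median of all values were kept, columns were aligned on their medians over these, and several probe sets for 1 gene were replaced by their mean. With 1 column per group no test was made.

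The comparison, the 41 gene lists and their members were chosen with earlier results of these data known. Genes that could be named were the 30 highest, the 30 lowest and the 6 largest differences of each list, or all of a list of up to 8. Exceptions were chosen after their values were seen. A symbol matched by an old alias to another gene was removed from the hormone and ribosomal lists. A list needed 4 measured genes for a median.

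The alternatives tried were unaligned columns, quantile normalization, omission of the filter, a filter at the 75th percentile, the brightest probe set, removal of the drift with level by lowess (fraction 0.3, 3 iterations), natural logs and a 3-fold threshold. The calculation was tested on simulated data. Python 3.11.15, numpy 2.4.6, pandas 2.3.3, statsmodels 0.14.6 and matplotlib 3.10.9 were used. The number of arrays limits the precision.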

Additional observations from a re-analysis of the deposited data

How the results depend on the processing

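The 32 genes past 1.5-fold higher became 27 in the columns as deposited, 30 after quantile normalization, 26 without the filter, 36 under the stricter filter, 33 with the brightest probe set and 34 with the drift with level removed, and 27, 29, 26, 31, 32 and 30 of the original 32 were among them. The 4 lower genes were past the line in each of these settings. Read as natural logs, the counts were 60 higher and 11 lower at 1.5-fold, and 20 higher and 3 lower at 2-fold. At 3-fold 2 genes were higher. Without the muscle and cuticle lists, a choice made after seeing the data, 19 genes were higher at 1.5-fold and 4 at 2-fold, and with unnamed probe sets included, also chosen then, 16 were higher at 2-fold. The thin filament median was 1.02 under the stricter filter, the thick filament median 0.23 without the filter, the lysozyme median 0.52 after quantile normalization and 0.53 without the filter, and the trypsin median 0.24 under the stricter filter. The causes were not tested. Medians of the cytosolic ribosomal, proton pump, glutathione transferase, metal-binding, hormone and spermathecal lists, all within 0.1 of 0, changed sign in at least 1 setting. No named gene past 1.5-fold changed direction. No paired analysis was possible because each group has 1 column. With 1 column per group, differences between pools of flies, extractions and chips cannot be told apart from those between matings.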
